A study of Mus musculus with 24 samples.

Results

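Cortical inhibitory interneurons are read here through 10 genes that mark them, Gad1, Gad2, Pvalb, Sst, Vip, Calb2, Npy, Cck, Lhx6 and Reln, out of 19505 genes with a probe set of their own on the array. A member is the gene-level probe set whose single gene symbol is that of the gene, and each of the 10 genes had 1 such probe set. Expression was read on Mouse Clariom S HT arrays from brain cortex and cardiac ventricle of 12 adult mice aged 2 months, with each mouse giving an array of each tissue (24 arrays). The groups were wild type (tatd+/+) and knockout (tatd-/-), with 6 mice each, 3 males and 3 females. Per the study's methods, the knockout lacks exon 3 of Tatdn1 in the whole body after a cross of a floxed line with CAG-Cre mice, the Cre transgene was then bred out, and the heart tissue was left ventricle. By the same methods the line is on a C57BL/6J background and was kept by crosses to mice of that background. A mouse is named here by its code, such as M75-0, in which M or F stands for the sex. The number after that letter is never shared between the genotypes, so a litter or cage it might mark cannot be told apart from genotype. Among tatd+/+ mice the males share a number and the females share another, so there it cannot be told apart from sex either.

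Interneurons are the local inhibitory cells of the cortex. They make the transmitter GABA from glutamate with the decarboxylases that Gad1 and Gad2 encode, and fall into classes marked by parvalbumin (Pvalb), somatostatin (Sst) and vasoactive intestinal peptide (Vip), with calretinin (Calb2), neuropeptide Y (Npy), cholecystokinin (Cck) and reelin (Reln) in overlapping subsets. The LIM homeobox factor Lhx6 marks the lineages born in the medial ganglionic eminence, from which parvalbumin and somatostatin cells come. Several members are not private to these cells: Cck is also made by pyramidal neurons, and Gad1 and Gad2 by every GABA neuron, those of the neighbouring striatum included.

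Sst carries the whole cAMP response element, to which CREB binds, just before its start site, and is the textbook case, while Vip, Cck and Gad2 carry its short form. They are shown because the genes of activity-induced transcription, many of them CREB targets, are set beside the members further on. The letters searched were TGACGTCA, and the shorter TGACG or its reverse complement CGTCA, which the longer motif contains. The 120 bases before an annotated transcript start are given 5′ to 3′ on the gene's strand from RefSeq on GRCm38.p6, with the matched letters in capitals. They are shown for Sst (chr16:23890845-23890964, minus strand), Vip (chr10:5639098-5639217, plus strand), Cck (chr9:121495695-121495814, minus strand) and Gad2 (chr2:22622207-22622326, plus strand). In Sst, Vip and Gad2 that start lies inside the gene span given further on, and distances are counted from it.
Sst: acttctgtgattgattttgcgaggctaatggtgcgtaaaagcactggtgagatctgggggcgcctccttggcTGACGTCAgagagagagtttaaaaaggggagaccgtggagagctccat
Vip: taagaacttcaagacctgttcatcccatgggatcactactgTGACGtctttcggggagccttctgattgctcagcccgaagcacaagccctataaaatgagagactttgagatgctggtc
Cck: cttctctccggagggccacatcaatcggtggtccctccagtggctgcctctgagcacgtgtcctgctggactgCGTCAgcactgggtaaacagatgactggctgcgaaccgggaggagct
Gad2: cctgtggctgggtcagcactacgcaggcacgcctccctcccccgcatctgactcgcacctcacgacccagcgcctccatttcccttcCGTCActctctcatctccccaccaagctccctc
The match began 48 bases before the start in Sst, 79 in Vip, 47 in Cck and 33 in Gad2. Sst held the whole motif, as did 588 of 32851 promoter windows of the same table (1.79%). The short form was in 6837 windows (20.8%) and in 4 of the 12 windows of the members (9 members have at least 1), each window running from 250 bases before to 50 bases after the start. A match is a description of the letters, not of binding.

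The values are log2 units of RMA signal, so that 1 unit is a factor of 2, and levels are compared between arrays for one probe set and not between probe sets. Tatdn1, the disrupted gene, gave 4.99 ± 0.31 (SD, n = 6) in tatd-/- cortex and 5.77 ± 0.34 in tatd+/+ cortex, and 5.49 ± 0.39 and 6.85 ± 0.25 in ventricle. Its difference was called in ventricle (-1.36, adjusted p = 0.0156 from limma), where the genotypes did not overlap. In cortex it was not called (-0.78, adjusted p = 0.168 from limma), and the genotypes overlapped. One cortex array, tatd-/- male M78-1, stood apart from the others, with a mean over 23 background controls of 2.08 against 1.54 to 1.84 on the other cortex arrays and a median over all entries of 2.86 against 2.68 to 2.77. Results without it are given for some of the members and lists that it moves, and the other values include it. The tissue labels fit their markers, with array means of 7.63 to 8.02 over 11 excitatory cortical markers in cortex and 3.59 to 4.12 in ventricle, and of 10.79 to 11.01 over 7 cardiomyocyte markers in ventricle and 2.89 to 3.36 in cortex. The 4.12 was the ventricle array of M78-1, and the next highest ventricle array was at 3.93. The dissected pieces were bulk tissue, so fewer interneurons and less RNA per interneuron cannot be told apart. The labels give 1 array per mouse and tissue, and the number of arrays limits the precision.

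All 10 genes were higher in cortex than in ventricle, the tissue with no cortical interneurons, on every tatd+/+ array. Each was called in limma (adjusted p from 2.23e-17 for the most significant to 1.53e-06 for the least), against 55.5% of all 22206 gene-level probe sets called in this comparison and 26.3% called higher in cortex. For every member the 6 cortex arrays lay above the 6 ventricle arrays, as they did for 20.1% of all probe sets. Both tissues came from the same 6 mice, so no permutation p over free splits of the arrays is given here. The limma fit took these arrays as independent, and with the mouse as a block all 10 were called too. The difference was 6.66 for Gad1 (standard error 0.14), 6.40 for Gad2 (0.23), 6.30 for Sst (0.19) and 7.29 for Cck (0.17). It was between 3.48 and 4.43 for Pvalb, Vip, Calb2 and Npy, and only 1.67 for Lhx6 (0.21) and 1.24 for Reln (0.14). The median of the 10 differences was 4.317, and that of all probe sets -0.09.

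In ventricle the signal of Gad1 fell below the mean of the background controls on 10 of 12 arrays, that of Gad2 on 8, Vip on 7, Calb2 on 4 and Pvalb on 2. For these genes the ventricle value is close to the array's floor, and the tissue difference is limited by it. Sst, Npy, Cck, Lhx6 and Reln stayed above that mean on all 12 ventricle arrays. In cortex no member fell below it on any array.

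**Figure D1:**
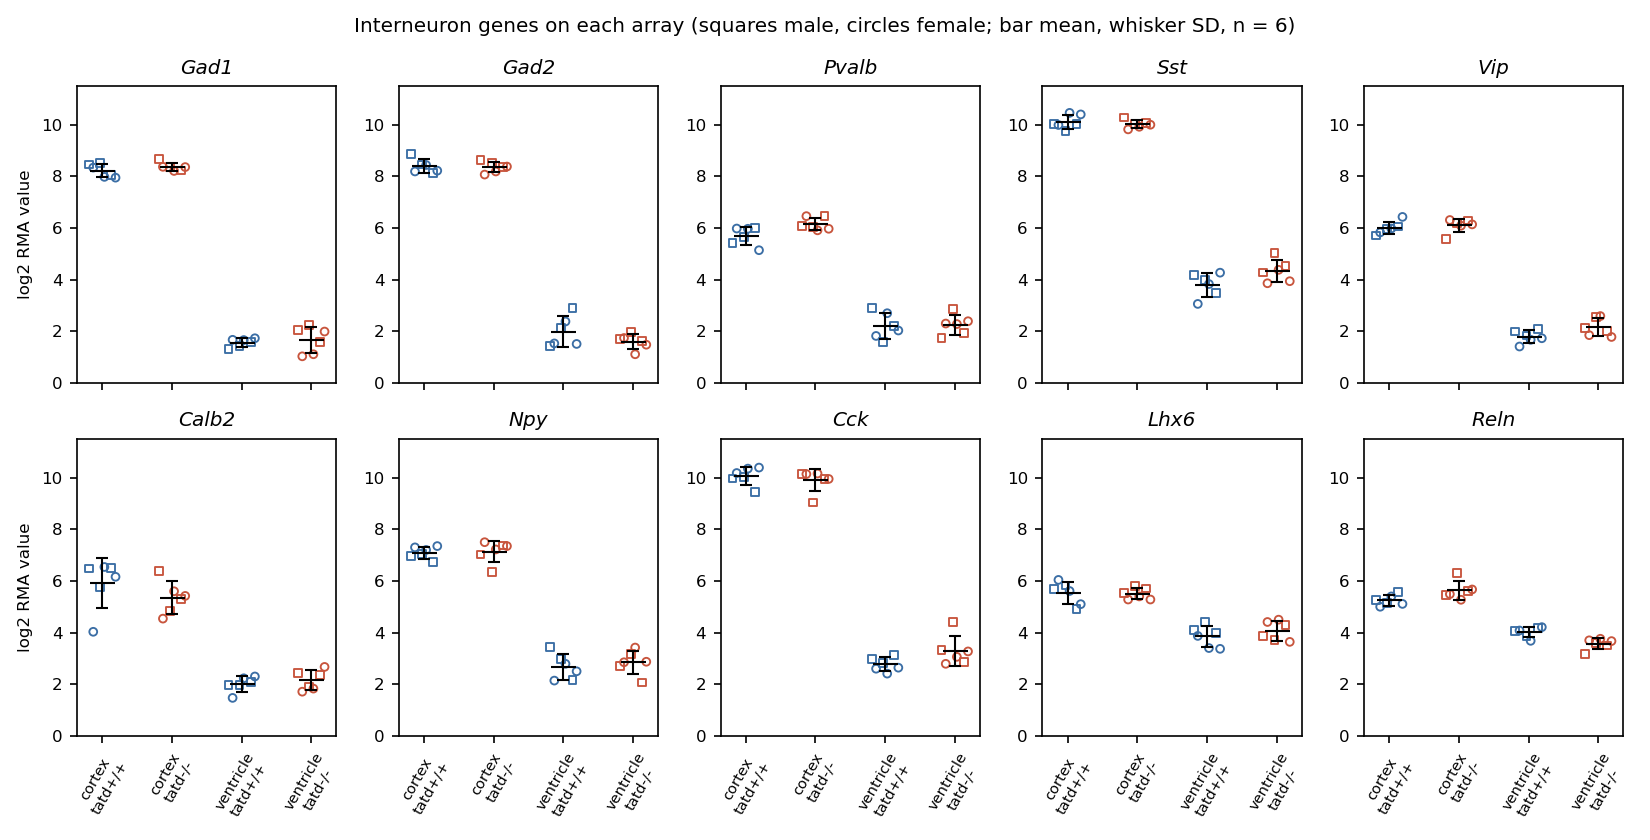
Log2 RMA value of each of the 10 interneuron genes (vertical axis) on the 24 arrays, by tissue and genotype along the horizontal axis; squares are males, circles females, the bar is the mean and the whisker the SD of 6 mice. Every cortex array lies above every ventricle array for each gene, and the genotypes overlap within each tissue, with a single tatd+/+ cortex array of Calb2 at 4.03 and a single tatd-/- cortex array of Cck at 9.04.

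Whether loss of Tatdn1 changes the interneuron genes in cortex was asked by setting 6 tatd-/- against 6 tatd+/+ cortex arrays. None of the 10 passed an adjusted p of 0.05 (adjusted p from 0.552 to 0.987), where 2 of all 22206 probe sets did (0.00901%). Tatdn1, the disrupted gene, did not pass in cortex either (adjusted p = 0.168 from limma). At an unadjusted p under 0.05, Pvalb and Reln were higher in tatd-/- cortex, and no member was lower. That is 2 of 10, where 6.98% of all probe sets met this limit, 2.39% higher and 4.59% lower. Means were higher in tatd-/- cortex for 5 members and lower for 5, with a median difference of 0.01, against 46.1% higher, 53.9% lower and a median of -0.02 over all probe sets. Without M78-1 they were higher for 6 members and lower for 4, with a median of 0.05. The genotypes overlapped for all 10 members, as for all but 0.576% of probe sets.

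Neither gene of the GABA-synthesising enzymes differed between the genotypes beyond the spread between mice. Gad1 (chr2:70561303-70602014) ran from 7.95 over a median of 8.20 to 8.53 in tatd+/+ cortex. In tatd-/- cortex it ran from 8.21 over 8.36 to 8.67, so that its lowest tatd-/- array was above 3 tatd+/+ arrays. The difference was 0.15 (standard error 0.13, 95% interval -0.14 to 0.43, exact permutation p = 0.26 with n = 6 per group). Gad2 (chr2:22621015-22693877), whose product supplies GABA at synapses, ran from 8.14 over 8.33 to 8.88 in tatd+/+ cortex and from 8.07 over 8.37 to 8.64 in tatd-/- cortex. Its difference of -0.03 (interval -0.33 to 0.27) has an interval that leaves out a change of 0.5 in either direction. For both enzymes the mean of the males was above that of the females in each genotype, with means of 8.35 and 8.09 for Gad1 and 8.49 and 8.28 for Gad2 in tatd+/+ mice. In tatd+/+ mice the sexes also differ in the number of the animal code, so sex cannot be told apart from it.

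Pvalb, the calcium buffer of fast-spiking basket and chandelier cells, had the largest difference upward of the 10. It ran from 5.14 over 5.81 to 5.99 in tatd+/+ cortex and from 5.91 over 6.06 to 6.46 in tatd-/- cortex. Of the tatd-/- arrays 4 lay above every tatd+/+ array, and the other two fell among the upper tatd+/+ values. The difference was 0.46 (standard error 0.16, 95% interval 0.11 to 0.80), with p = 0.0123 before and 0.552 after adjustment in limma, and p = 0.026 in the exact permutation test. It was 0.50 in males and 0.42 in females (3 against 3 each, a design whose smallest exact permutation p cannot pass the threshold), and 0.35 to 0.52 with any single mouse left out. Pvalb (chr15:78191112-78206400) lies on the chromosome of Tatdn1, 19.3 Mb from it. Among 9 measured genes of parvalbumin cells, Pvalb alone had an unadjusted p under 0.05. The potassium channel gene Kcnc1, which allows fast spiking, differed by 0.25 (interval -0.05 to 0.55), the vesicle calcium sensor gene Syt2 by 0.49 (-0.16 to 1.14, and 0.82 without M78-1) and the respiratory subunit gene Cox6a2 by -0.26 (-0.69 to 0.16). The median of the 9 was 0.09 (6 higher and 3 lower means), and 0.14 without M78-1 (8 higher and 1 lower mean).

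Calb2, calretinin, spread more widely between mice than any other member. It ran from 4.03 over 6.32 to 6.54 in tatd+/+ cortex and from 4.54 over 5.36 to 6.38 in tatd-/- cortex. One tatd+/+ female, F76-1, was at 4.03, below every other cortex array, while the remaining 5 tatd+/+ mice lay between 5.75 and 6.54. The difference was -0.57 (standard error 0.38, 95% interval -1.37 to 0.24, exact permutation p = 0.255, n = 6 per group). Without F76-1 it was -0.94, with an unadjusted limma p of 0.00275. Leaving out F76-1 is a choice made from its value and gives no call. The SD of Calb2 was 0.97 in tatd+/+ cortex, where those of the other 9 members were 0.21 to 0.43. Calb2 lies on chromosome 8 (chr8:110142526-110168212), and besides cortical interneurons it marks periglomerular cells of the olfactory bulb. Of 5 measured olfactory bulb markers 4 had a lower mean in tatd-/- cortex, among them Th at -0.75 (unadjusted p = 0.0284 and adjusted p = 0.654 from limma) and Eomes at -0.57 (interval -1.43 to 0.29). Eomes, Slc6a3 and Tbx21 had group means of 1.36 to 2.33 in cortex, close to the background controls. The part of olfactory bulb tissue in the Calb2 values was not tested.

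Of the peptide genes, none differed between genotypes beyond the spread in cortex. Sst (chr16:23889573-23891342), the peptide of dendrite-targeting Martinotti cells, ran from 9.76 over 10.03 to 10.46 in tatd+/+ cortex and from 9.82 over 10.01 to 10.28 in tatd-/- cortex. Its difference was -0.09 (interval -0.38 to 0.19). By sex, Sst differed by 0.19 in males and by -0.37 in females, tatd-/- minus tatd+/+ (means 10.13 against 9.94 and 9.91 against 10.28). This difference of the genotype effect between sexes was 0.56 (standard error 0.24, interval 0.04 to 1.08, unadjusted p = 0.0373, adjusted p = 0.995 from limma), and was not called. Sex in tatd+/+ mice goes with the number of the animal code, and the 2 cannot be told apart here. Of the 10 members Sst alone had an unadjusted p under 0.05 for it, against 3.86% of probe sets, and 0 of 22206 probe sets were called.

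Among 10 genes of somatostatin cells, 8 had a higher and 2 a lower mean in tatd-/- cortex, and none had an unadjusted p under 0.05 (median 0.10). The calcium buffer gene Calb1 differed by 0.22 (interval -0.04 to 0.47). Chodl, which marks the rare long-range projecting somatostatin cells, differed by -0.27 (-0.63 to 0.09), at means of 2.15 and 1.89 that are close to the background controls. Without M78-1, 7 of the 10 had a higher and 3 a lower mean (median 0.09), and Chodl differed by -0.16.

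Vip (chr10:5639193-5647617), whose cells mostly inhibit other interneurons, ran from 5.71 over 5.97 to 6.43 in tatd+/+ cortex and from 5.58 over 6.16 to 6.31 in tatd-/- cortex. The lowest and the highest cortex value were thus in different genotypes, and the difference was 0.10 (interval -0.21 to 0.42). The tatd-/- male M78-0, at 5.58, lay below the 6.09 to 6.31 of the other tatd-/- mice. Of 10 genes of Vip and Htr3a cells, which include Calb2, none had an unadjusted p under 0.05, 6 had a higher and 4 a lower mean, and the median was 0.02. Tac2, the neurokinin B precursor, differed by -0.36 (-0.76 to 0.03), the cannabinoid receptor gene Cnr1 by 0.27 (-0.04 to 0.58) and the enkephalin precursor gene Penk by 0.14 (-0.17 to 0.45).

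Npy (chr6:49822710-49829507), made by neurogliaform and many somatostatin cells, ran from 6.72 over 7.12 to 7.35 in tatd+/+ cortex and from 6.36 over 7.29 to 7.50 in tatd-/- cortex. Its difference was 0.04 (interval -0.33 to 0.41). Cck (chr9:121489824-121495694) ran from 9.45 over 10.10 to 10.39 in tatd+/+ cortex and from 9.04 over 10.05 to 10.16 in tatd-/- cortex, with a difference of -0.16 (-0.58 to 0.25). For both peptides the lowest cortex value was that of M78-1, at 6.36 and 9.04. Without that mouse the difference was 0.20 for Npy and 0.01 for Cck.

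Lhx6 (chr2:36081950-36105992) ran from 4.91 over 5.64 to 6.04 in tatd+/+ cortex and from 5.28 over 5.47 to 5.80 in tatd-/- cortex, inside the tatd+/+ range. The difference was -0.02 (interval -0.40 to 0.35). Of 13 measured transcription factors of the interneuron lineages, Lhx6 included, 8 had a higher and 5 a lower mean in tatd-/- cortex (median 0.05). Dlx2, which specifies GABA neurons in the embryo, had the smallest p, with 5.95 ± 0.21 (SD, n = 6) in tatd+/+ and 5.63 ± 0.24 in tatd-/- cortex and a difference of -0.32 (unadjusted p = 0.0318, adjusted p = 0.663 from limma). Sp9 differed by 0.17, Prox1, a factor of Vip and other caudal-born cells, by 0.19, and Sox6, which acts after Lhx6 in the same lineage, by -0.20. Without M78-1 the difference of Sox6 was -0.01.

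Reln, the secreted glycoprotein that Cajal-Retzius cells and superficial interneurons release, was the other member with an unadjusted p under 0.05. It ran from 5.0 over 5.20 to 5.58 in tatd+/+ cortex and from 5.27 over 5.54 to 6.30 in tatd-/- cortex. Of the tatd-/- arrays 3 lay above every tatd+/+ array, M78-1 highest at 6.30. The difference was 0.38 (standard error 0.16, 95% interval 0.04 to 0.72), with p = 0.0302 before and 0.661 after adjustment in limma, and p = 0.0303 in the exact permutation test. Without M78-1, the array with the high background, it was 0.24 with an unadjusted limma p of 0.0677. The same p was 0.0538, 0.0662 and 0.059 without tatd+/+ mouse M75-1, F76-1 or F76-3. Reln lies at chr5:21884454-22344705.

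The genes that receive the reelin signal had lower means in tatd-/- cortex, in all 3 cases. The receptor gene Lrp8 gave 6.49 ± 0.17 (SD, n = 6) in tatd+/+ and 6.21 ± 0.21 in tatd-/- cortex, a difference of -0.27 (unadjusted p = 0.0444, adjusted p = 0.702 from limma). The adaptor gene Dab1 differed by -0.25 (interval -0.50 to 0.00) and the receptor gene Vldlr by -0.12 (-0.46 to 0.21). None was called. M78-1 again had the lowest array mean of the 3 genes in tatd-/- cortex, and without it Lrp8 differed by -0.24, Dab1 by -0.23 and Vldlr by -0.01.

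**Figure D2:**
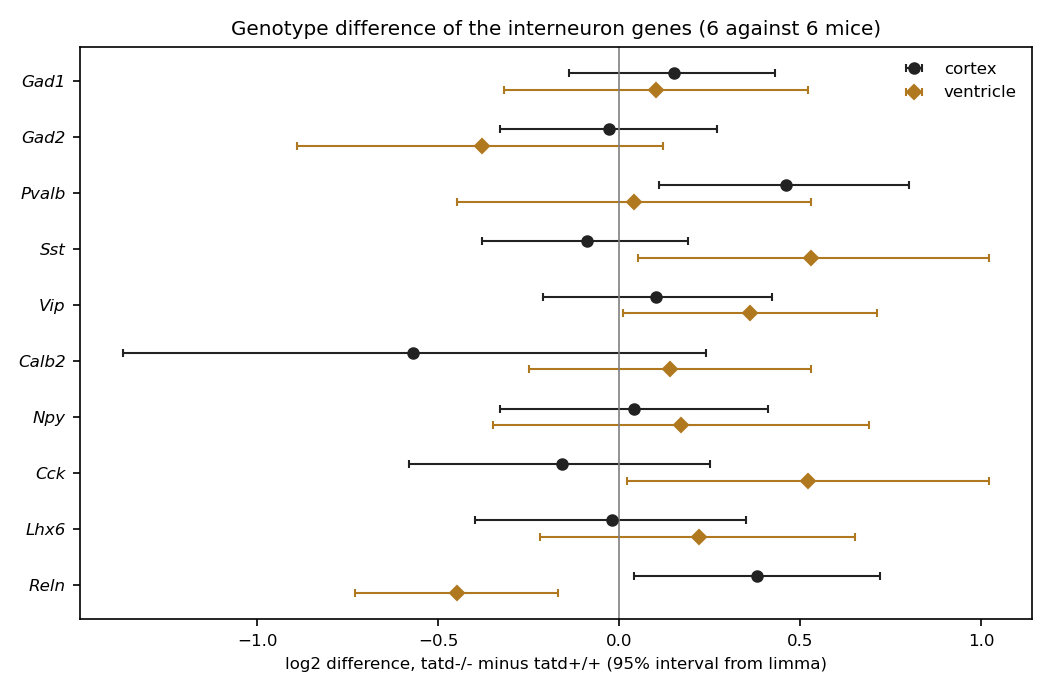
Log2 difference of each interneuron gene, tatd-/- minus tatd+/+ (horizontal axis), in cortex (circles) and ventricle (diamonds), with the 95% interval from limma over 6 against 6 mice. In cortex the intervals of Pvalb (0.11 to 0.80) and Reln (0.04 to 0.72) lie above 0. In ventricle that of Reln (-0.73 to -0.17) lies below 0, and those of Sst (0.05 to 1.02), Cck (0.02 to 1.02) and Vip (0.01 to 0.71) lie above 0. No difference was called after adjustment.

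The machinery around the members gave 0 calls as well. Of 7 measured genes for GABA synthesis, vesicle loading, uptake and breakdown, which include Gad1 and Gad2, none had an unadjusted p under 0.05 in cortex (4 higher and 3 lower means, median 0.04). The vesicular GABA transporter gene Slc32a1 gave 7.38 ± 0.45 (SD, n = 6) in tatd+/+ and 7.71 ± 0.24 in tatd-/- cortex, a difference of 0.33 (interval -0.06 to 0.73). The uptake transporter gene Slc6a13 differed by -0.45 (-0.93 to 0.03, and -0.3 without M78-1) and Aldh5a1, which clears the breakdown product, by -0.09. Among 8 genes of Lamp5 and neurogliaform cells, which include Reln, 1 had an unadjusted p under 0.05, Reln itself (5 higher and 3 lower means, median 0.03, and 0.12 without M78-1). Lamp5 and Id2 each differed by 0.24 and Sncg, the gamma-synuclein gene of a Cck and Vip class, by -0.42 (interval -0.84 to 0.00).

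Receptors for the peptides that the members encode had mostly lower means. Of 11 measured receptor genes 10 had a lower mean in tatd-/- cortex, with a median of -0.15, against 53.9% lower means and a median of -0.02 over all probe sets. Only Sstr1, a somatostatin receptor, had an unadjusted p under 0.05, with 3.58 ± 0.38 (SD, n = 6) in tatd+/+ and 3.16 ± 0.39 in tatd-/- cortex (difference -0.42, unadjusted p = 0.0459, adjusted p = 0.708 from limma), where 4.59% of all probe sets were lower at that limit. The neuropeptide Y receptor gene Npy1r differed by -0.43 (interval -0.88 to 0.03), Adcyap1r1, whose main ligand is the Vip relative PACAP, by -0.27 (-0.59 to 0.05) and the cholecystokinin receptor gene Cckbr by -0.20 (-0.50 to 0.10). M78-1 had the lowest array mean of these receptor genes in tatd-/- cortex, 4.88 against 5.16 to 5.38 on the others. Without it 7 of the 11 had a lower mean, with a median of -0.13, and Npy1r differed by -0.22 and Sstr1 by -0.39. Among 11 excitatory cortical neuron markers 7 had a higher and 4 a lower mean (median 0.07). Without M78-1 these counts were 8 and 3 (median 0.06).

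Markers of other cells and states in the dissected cortex are given beside the members, and none of them was called. Of 10 striatal markers 8 had a higher mean in tatd-/- cortex (median 0.24), with Ppp1r1b, the DARPP-32 gene, 0.48 higher (unadjusted p = 0.00201, adjusted p = 0.372 from limma). Their array means ran from 5.98 over 6.67 to 7.26 in tatd+/+ and from 6.61 over 6.84 to 7.11 in tatd-/- cortex. Of 7 oligodendrocyte markers 6 had a higher mean (median 0.34), 2 of them with an unadjusted p under 0.05, Mbp at 0.34 and Cnp at 0.40. The median was 0.13 over 6 thalamic markers (5 higher and 1 lower mean) and 0.05 over 7 hippocampal markers (5 and 2). Over 6 astrocyte markers it was -0.02 (2 and 4), and over 6 microglia markers 0.03 (3 and 3). In these 4 lists only 1 gene, a thalamic marker, had an unadjusted p under 0.05. All 18 activity-induced genes had a lower mean (median -0.60) and 10 had an unadjusted p under 0.05, none of them called, with the neurotrophin gene Bdnf at -1.04, the phosphatase gene Dusp4 at -0.87 and the prostaglandin synthase gene Ptgs2 at -0.78. Over all probe sets 53.9% had a lower mean and 4.59% were lower at that limit. Array means of the activity-induced genes were 6.81 to 6.87 in tatd+/+ females and 5.76 to 6.14 in tatd+/+ males. In tatd-/- mice they were 5.54 to 6.3, a range that holds the tatd+/+ males. Sex in tatd+/+ mice cannot be told apart from the number of the animal code. Without M78-1, 17 of the 18 had a lower mean (median -0.62), and all 10 striatal and all 7 oligodendrocyte markers a higher one (medians 0.26 and 0.37). Beside these, Sst, with the whole CREB motif, differed by -0.09, and Vip, Cck and Gad2, with its short form, by 0.10, -0.16 and -0.03. The lists were chosen with earlier results of these arrays known, and the part of these cells and states in the members' differences was not tested. The striatal markers are taken up again below, in a description made after the data were seen.

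**Figure D3:**
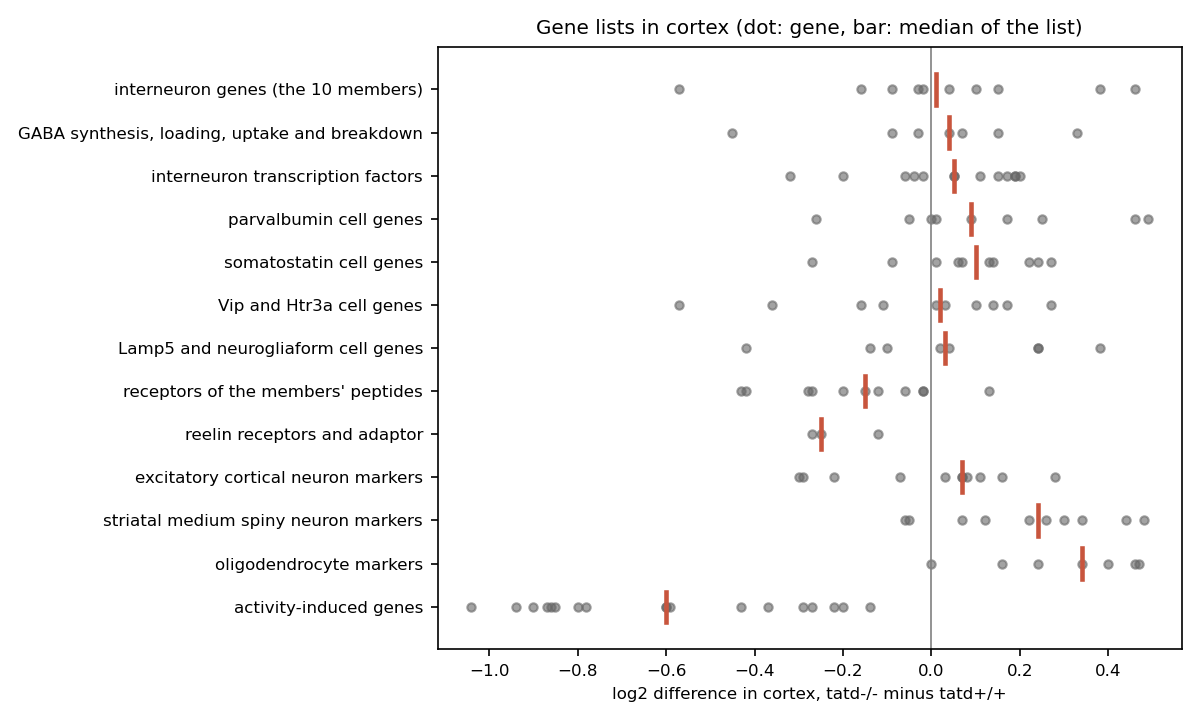
Log2 difference in cortex, tatd-/- minus tatd+/+ (horizontal axis), of every measured gene of some of the lists named in the text (rows; dots are genes, the red bar is the median of the list). The 10 interneuron genes lie on both sides of 0 around a median of 0.01, the peptide receptors mostly below 0 and all 18 activity-induced genes below 0.

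Between mice of one genotype, Gad1 followed the striatal markers. Over the 12 cortex arrays, after removal of the genotype means, Gad1 correlated with the mean of the 10 striatal markers by r = 0.80 (permutation p = 0.00205, adjusted p = 0.041 over 40 relations of the 10 members with 4 marker lists) and by Spearman's rho = 0.81 (permutation p = 0.00256, adjusted 0.0594). Without the 2 arrays farthest from the median of the marker mean r was 0.82, and it was 0.88 within tatd+/+ and 0.59 within tatd-/- mice. Gad2 (r = 0.73) and Lhx6 (r = 0.73), both with an adjusted permutation p of 0.0708, ran the same way, and Vip the opposite way (r = -0.64, adjusted permutation p = 0.163). For Gad2 r was 0.50 without the 2 farthest arrays. Gad2 also went against the mean of the excitatory cortical markers, with r = -0.81 (permutation p = 0.00126, adjusted 0.041), rho = -0.80 (adjusted 0.0594), -0.78 without the 2 farthest arrays, and -0.89 and -0.65 within tatd+/+ and tatd-/- mice. Against the striatal markers the other members stayed between r = -0.25 (Sst) and 0.14 (Cck). The other 2 lists were oligodendrocyte markers and activity-induced genes, and no member passed the adjusted threshold with either. Gad1 had r = 0.66 with the oligodendrocyte markers (adjusted permutation p = 0.155, rho = 0.74) and r = -0.59 with the activity-induced genes (adjusted permutation p = 0.206). Cck had r = 0.51 with the activity-induced genes (adjusted permutation p = 0.291, rho = 0.72, adjusted 0.0886).

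These relations were looked at after a striatal gene had come up as the nearest to Gad1, so they are a description and no independent result. By the likeness over the 12 cortex arrays (Pearson r of deviations from the genotype means, 6252 candidate probe sets), the 3 genes closest to Gad1 were Pde10a (r = 0.96), the phosphodiesterase of striatal medium spiny neurons and one of the 10 markers, Sash1 (0.90) and Foxo1 (0.88). With the striatal mean as a term in the fit, chosen after the data were seen, the genotype difference of Gad1 was 0.05, that of Pvalb 0.47 (adjusted p = 0.487 from limma) and that of Reln 0.42 (adjusted p = 0.507). The same term took Gad2 from -0.03 to -0.13, Lhx6 from -0.02 to -0.16 and Vip from 0.10 to 0.20, none of them called. For the other classes the 3 nearest genes were Rnf2 (0.86), Dnajc13 (0.86) and Ppme1 (0.85) for Pvalb, Mapk1ip1l (0.92), Prpf38b (0.89) and Atxn2 (0.89) for Sst, and Safb (0.85), Cep19 (0.85) and Srsf10 (0.82) for Vip. For Calb2, added after its values were seen, they were Bicdl1 (0.90), Pigt (0.89) and Sema6d (0.88). No other member was among these nearest genes.

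**Figure D4:**
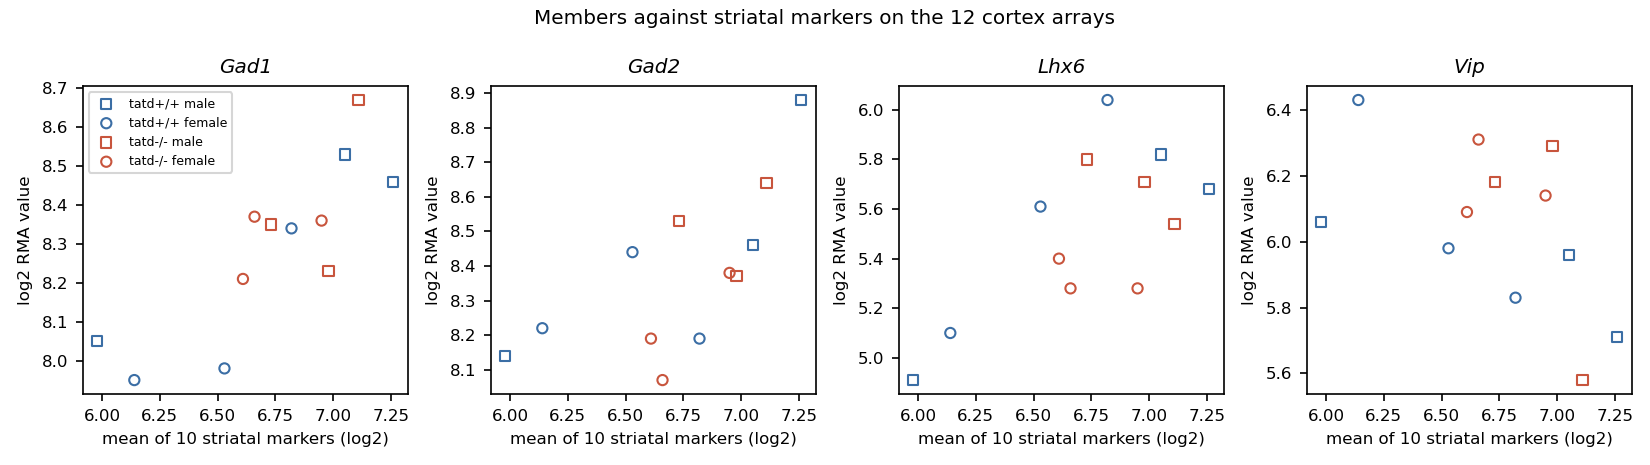
Log2 RMA value of Gad1, Gad2, Lhx6 and Vip (vertical axes) against the mean of 10 striatal markers on the same array (horizontal axis, log2), for the 12 cortex arrays; blue is tatd+/+, red tatd-/-, squares males and circles females. Gad1 is lowest on the arrays with striatal means of 5.98, 6.14 and 6.53 and highest on tatd-/- mouse M78-0 at 7.11 (r = 0.80 after removal of genotype means), and Vip goes the other way (r = -0.64).

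The members did not vary together as a group. Of their 45 pairs over the 12 cortex arrays, 19 had a positive r and the median r was -0.05, with 5 pairs at an unadjusted and 2 at an adjusted permutation p under 0.05. The pairs past the adjusted threshold were Npy with Cck (r = 0.88, permutation p = 0.00108, adjusted 0.0448) and Cck with Reln (r = -0.86, permutation p = 0.00199, adjusted 0.0448). Both rest on few arrays: without the 2 arrays farthest from the median of Cck, r was 0.40 and -0.27, and rho was 0.67 and -0.57 (adjusted permutation p = 0.519 for each). Cortex array M78-1, with the lowest Npy and Cck and the highest Reln of all 12, belongs to these, and without it, or without tatd+/+ mouse M75-0, M75-2 or F76-3, no pair passed. Within tatd+/+ and tatd-/- mice r was 0.95 and 0.87 for the first pair and -0.63 and -0.97 for the other. Gad1 with Vip followed (r = -0.73, adjusted permutation p = 0.073), while Gad1 with Gad2, which share a cell and a product, had r = 0.55 (adjusted 0.469).

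In ventricle the same probe sets give the level without cortical interneurons, and there too none of the 10 was called (adjusted p from 0.388 to 0.974), where 3 of 22206 probe sets were (0.0135%). At an unadjusted p under 0.05, 3 were higher in tatd-/- ventricle and 1 was lower, where 8.46% of all probe sets met this limit, 5.08% higher and 3.37% lower. Means were higher for 8 members and lower for 2 (median 0.16, and 0.02 over all probe sets, of which 54.1% had a higher mean). Without M78-1 they were higher for 6 members and lower for 4 (median 0.15). The genotypes overlapped for all 10, as for all but 0.59% of probe sets. The limit was met by 4 members here and by 2 in cortex.

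Reln, the member that was lower at this limit, ran from 3.68 over 4.08 to 4.21 in tatd+/+ ventricle and from 3.16 over 3.63 to 3.76 in tatd-/- ventricle. Of the tatd-/- arrays 4 lay below every tatd+/+ array. The difference was -0.45 (standard error 0.13, 95% interval -0.73 to -0.17), with p = 0.00359 before and 0.388 after adjustment in limma, and p = 0.00649 in the exact permutation test, and it was -0.62 in males and -0.28 in females. In the heart Reln is known from lymphatic endothelium, whose 5 markers had a median of -0.16 with none at an unadjusted p under 0.05. The part of lymphatic endothelium in the Reln values was not tested.

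Sst ran from 3.06 over 3.91 to 4.27 in tatd+/+ ventricle and from 3.86 over 4.33 to 5.03 in tatd-/- ventricle, with a difference of 0.53 (interval 0.05 to 1.02, unadjusted limma p = 0.0326, exact permutation p = 0.0606). Cck ran from 2.41 over 2.74 to 3.14 and from 2.79 over 3.16 to 4.42, with a difference of 0.52 (0.02 to 1.02, unadjusted limma p = 0.043, exact permutation p = 0.0476). Vip ran from 1.41 over 1.79 to 2.09 and from 1.78 over 2.08 to 2.59, with a difference of 0.36 (0.01 to 0.71, unadjusted limma p = 0.0425, exact permutation p = 0.0628). The adjusted p from limma was 0.54 for Sst and 0.573 for Cck and Vip. The Vip values are close to the array's floor, below the mean of the background controls on 7 of 12 ventricle arrays. Mouse M78-1 was highest for Sst and Cck, and without it the differences were 0.40, 0.29 and 0.29, with unadjusted limma p of 0.084, 0.0799 and 0.104. Leaving out tatd+/+ female F76-1 had a like effect, with 0.39, 0.48 and 0.29 (unadjusted limma p 0.0844, 0.077 and 0.101).

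General neuron markers were measured beside these peptides in ventricle, and none was called. Their array means over 9 genes ran from 2.91 over 3.08 to 3.70 in tatd+/+ and from 3.09 over 3.50 to 4.78 in tatd-/- ventricle, with M78-1 at 4.78 and the next tatd-/- mouse at 3.80. Of the 9 genes 7 had a higher mean (median 0.53) and 4 an unadjusted p under 0.05, Syp at 0.86, Rtn1 at 0.98, Syt1 at 1.16 and Nefl at 0.53. Without M78-1 the means of 6 were higher and of 3 lower, with a median of 0.23. M78-1 was also the highest ventricle array over the 11 excitatory cortical markers, at 4.12. Their median difference in ventricle was 0.09, and -0.01 without M78-1. The 7 measured markers of autonomic neurons, which define the nerve cells of the heart, had array means of 1.52 to 1.94, within the range of the background controls on ventricle arrays (1.79 to 2.10) or below it, and a median difference of -0.04. The part of nerve tissue in the ventricle values of Sst, Cck and Vip was not tested.

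**Figure D5:**
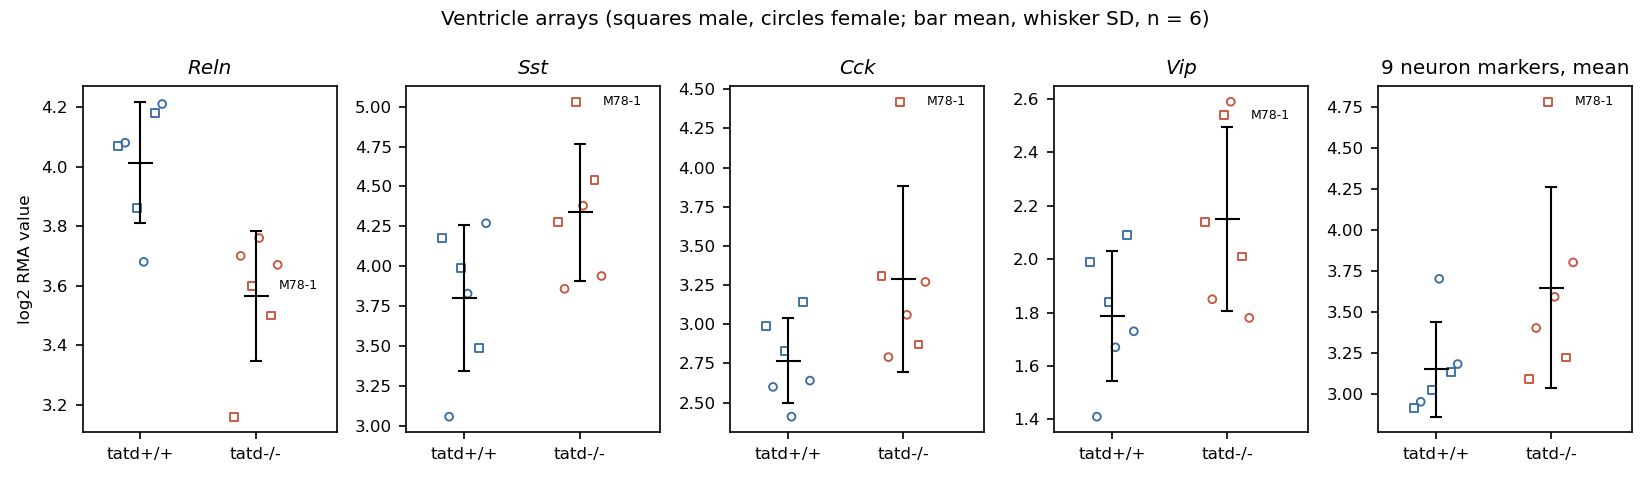
Log2 RMA value of Reln, Sst, Cck and Vip and the mean of 9 general neuron markers (vertical axes, not starting at 0) on the ventricle arrays of 6 tatd+/+ and 6 tatd-/- mice; squares are males, circles females, the bar is the mean and the whisker the SD. Reln is lower in tatd-/- ventricle (3.16 to 3.76 against 3.68 to 4.21), and mouse M78-1 is highest for Sst (5.03), Cck (4.42) and the neuron markers (4.78).

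Reln thus had opposite signs in the 2 tissues, and the difference between its genotype effects, cortex minus ventricle, was 0.83 (standard error 0.21, 95% interval 0.40 to 1.26). Its unadjusted p from the interaction term in limma was 0.000515 and its adjusted p 0.182, so it was not called. It was 0.70 to 0.94 with any mouse left out. By genotype and tissue, Reln was ordered as tatd-/- cortex (5.63 ± 0.35, SD, n = 6), tatd+/+ cortex (5.25 ± 0.21), tatd+/+ ventricle (4.01 ± 0.20) and tatd-/- ventricle (3.56 ± 0.22). The neighbours within a tissue overlap between mice and the tissues do not. Sst (-0.63, unadjusted p = 0.0276) and Cck (-0.68, unadjusted p = 0.042) also met the unadjusted limit for this interaction in limma, with adjusted p of 0.457 and 0.508. That is 3 of 10 members, where 9.54% of all probe sets met it and 3 probe sets (0.0135%) were called. Without mouse M78-1 the values for Sst and Cck were -0.49 and -0.28.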

How the data were processed

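Arrays held total RNA of 24 samples (2 tissues of 12 mice), and the deposited log2 values were made by the authors with RMA, a background correction followed by quantile normalization and a summary per probe set. Its version and the set of arrays normalized together were not given in the sources used. Quantile normalization can shrink changes shared by most probe sets, and values near the background compress differences. Tests covered the 22206 gene-level probe sets of 29129 entries, without 68 AFFX, 63 ERCC and 6792 other entries. Symbols came from the platform table (19572 probe sets with 1 symbol, 2634 with none) and positions and promoters from RefSeq (GRCm38.p6).

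For each tissue a model with genotype alone was fitted by lmFit and eBayes of limma 3.58.1 (R 4.3.3), with Benjamini-Hochberg adjustment over all 22206 and a threshold of 0.05, and two-sided exact permutation tests took all 924 splits of 12 mice. Interactions were fitted over all 24 arrays (tissue) or the 12 cortex arrays (sex). Correlations used 100000 permutations (seed 20261202). The code was tested on simulated data. Members and lists were chosen with earlier results of these data known. Besides the members and Tatdn1, at most 4 genes per list are named, by smallest unadjusted p, in cortex or, for lists of heart cells, in ventricle, and the 3 genes most like Gad1, Pvalb, Sst and Vip. The nearest genes of Calb2 are named outside this rule, after its values were seen.

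Alternatives were quantile normalization within the fit, median centring, removal of the 30% dimmest probe sets, a variance trend with a robust fit, array weights, sex as a term, each sex alone, all 24 arrays in 1 fit, the exact Wilcoxon test, the mouse as a block, each mouse left out in turn and, chosen after the data were seen, the striatal marker mean as a term and the lists without M78-1. The heart and brain array with one animal code was read as the same mouse (consensus correlation -0.014, from -0.08 to 0.046 per mouse). Analyses used Python 3.11.15, numpy 2.4.6, pandas 2.3.3, scipy 1.17.1 and matplotlib 3.10.9.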

Additional observations from a re-analysis of the deposited data

Results flagged for a closer look

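In 40 sets of 6 arrays (10 genes, 2 genotypes, 2 tissues), 5 had a value far from the others of its group by Dixon's ratio at the 95% level, where chance gives about 1 in 20 sets. In tatd-/- cortex Gad1 of male M78-0 was 8.67 (others 8.21 to 8.37, ratio 0.637), and Vip of the same array was 5.58 (others 6.09 to 6.31, ratio 0.696). In tatd+/+ cortex Calb2 of female F76-1 was 4.03 (others 5.75 to 6.54, ratio 0.683). Cck of tatd-/- male M78-1 was 9.04 in cortex (others 9.94 to 10.16, ratio 0.805) and 4.42 in ventricle (others 2.79 to 3.31, ratio 0.681).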

How the results depend on the processing

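No member was called in cortex, ventricle or either interaction under any alternative run, and all 10 were called between tissues in every one, also with the mouse as a replicate block (10), which changed no call of a member (0 in the tissue interaction). The number of probe sets called over all 22206 moved more. In cortex it was 2, and 4 with quantile normalization within the fit, 4 with median centring, 6 with a variance trend and robust fit, 11 with array weights, 8 with sex as a term, 34 with all 24 arrays in 1 fit, 0 in males alone, 0 in females alone, 0 by the exact Wilcoxon test and 1 to 16 with 1 mouse left out (16 without F77-3, 5 without M78-1). In ventricle it was 3, and 16 with a variance trend, 24 with all 24 arrays, 0 in each sex alone, 0 by the exact Wilcoxon test and 0 to 5 with 1 mouse left out (0 without M78-1 or M75-2, 5 without F76-2). For the tissue interaction it was 3, and 5 with quantile normalization, 0 with median centring, 0 with a variance trend, 7 with array weights and 0 to 13 with 1 mouse left out (13 without F77-3, 10 without M78-0). For the sex interaction it was 0, and 5 with a variance trend and 2 with array weights (by limma 858 had an unadjusted p under 0.05). Pairs of members past the adjusted threshold numbered 2, and 1 with quantile normalization and 0 to 4 with 1 mouse left out.

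Signs turned only for differences near 0 or in 1 sex. In cortex Gad2 was 0.02 with median centring and 0.02 in males, Sst 0.19 in males, and Lhx6 0.04 with quantile normalization, 0.02 with median centring and 0.21 in males. With 1 mouse left out Gad2 ran from -0.08 to 0.07, Npy from -0.04 to 0.20, Cck from -0.28 to 0.01 and Lhx6 from -0.15 to 0.08. In ventricle Gad1 was -0.31 in females, and Pvalb -0.06, Npy -0.23 and Lhx6 -0.20 in males. With 1 mouse left out there, Gad1 ran from -0.01 to 0.23 and Pvalb from -0.08 to 0.18. The cause of these changes was not tested. Each gene had 1 probe set, so the mean over probe sets of a gene was not run. Members near the background in ventricle had no value once the 30% dimmest probe sets were removed.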
